A study of Rattus norvegicus with 4 samples.

Results

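Enzymes of oxidation, ester hydrolysis and conjugation were followed in 4 arrays of laser-microdissected rat oral epithelium. They comprised the cytochrome P450 (Cyp), aldehyde dehydrogenase (Aldh), alcohol dehydrogenase (Adh), aldo-keto reductase (Akr), carboxylesterase (Ces), flavin monooxygenase (Fmo), epoxide hydrolase (Ephx), sulfotransferase (Sult) and UDP-glucuronosyltransferase (Ugt) families. Members were chosen by symbol from the platform annotation, leaving out Cyp51, with 1 probe set per gene, that of the highest mean signal. This gave 129 of the 14217 genes on the array, from 153 probe sets, and 12 further probe sets that carried several symbols were not used.

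Of the 4 arrays, 2 held junctional epithelium, the epithelial collar that seals gingiva to the tooth, and 2 held peri-implant epithelium, which faces an implant of titanium alloy in the tooth's place. All came from male Sprague-Dawley rats whose left upper first molars were extracted, with implants placed, at 4 weeks of age, and tissue was taken from 20 rats 4 weeks after surgery. The labels give this treatment for both groups, and gingiva around teeth was the source of the junctional samples. The sources used here do not say how many animals each array represents or whether both epithelia came from the same animals, so the p-values measure only the spread between these arrays, which may be technical.

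These enzymes form the machinery by which cells handle lipids, vitamins, hormones and foreign compounds. Cytochrome P450 enzymes insert oxygen into lipophilic molecules, drawing electrons from partner reductases, and carboxylesterases split esters of drugs and lipids. Alcohol dehydrogenases and aldehyde dehydrogenases oxidise alcohols to acids in sequence, as in the path from vitamin A to retinoic acid, which controls keratinization of stratified epithelia. Sulfotransferases and glucuronosyltransferases attach groups that make products water-soluble, and many members of all these families are best known from the liver.

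All signals are log2 values. Bacterial control probe sets, 27 in number, reached at most 6.42, and this maximum served as the background level. On each array 66.1% to 68.9% of all genes exceeded it. Precision is limited by having 2 arrays a group. The stratified epithelium markers (Krt5, Krt14 and others) lay above it on every array for 9 of 9 genes. Of 6 junctional epithelium and enamel organ markers, 2 were measured (Ambn and Amelx), both below background on all arrays, so the junctional identity could not be checked. Col1a1, a collagen gene of fibroblasts, read 14.00 to 14.40 over the 4 arrays. In a tissue sample, fewer cells of a type and less RNA per cell cannot be told apart.

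Most of these enzyme genes were not measurable in either epithelium. Only 40 of 129 (31.0%) had a mean over the 4 arrays above background, against 66.9% of all genes, and 79 were above it on no array. The lowest gene counted as above background was Sult1b1, with a mean of 6.73, and the highest counted as below it was Sult1d1, with 6.41. Of the aldehyde dehydrogenases, 15 of 17 were above background. This held for 6 of 15 aldo-keto reductases, 10 of 57 P450 genes, 2 of 5 alcohol dehydrogenases, 2 of 5 carboxylesterases, 2 of 14 sulfotransferases and 1 of 9 glucuronosyltransferases. Of P450 genes known for oxidising drugs and polyaromatic pollutants, 15 of 17 were below background on every array, among them Cyp1a1, Cyp1a2, Cyp1b1, Cyp2e1 and Cyp3a2.

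**Figure D1:**
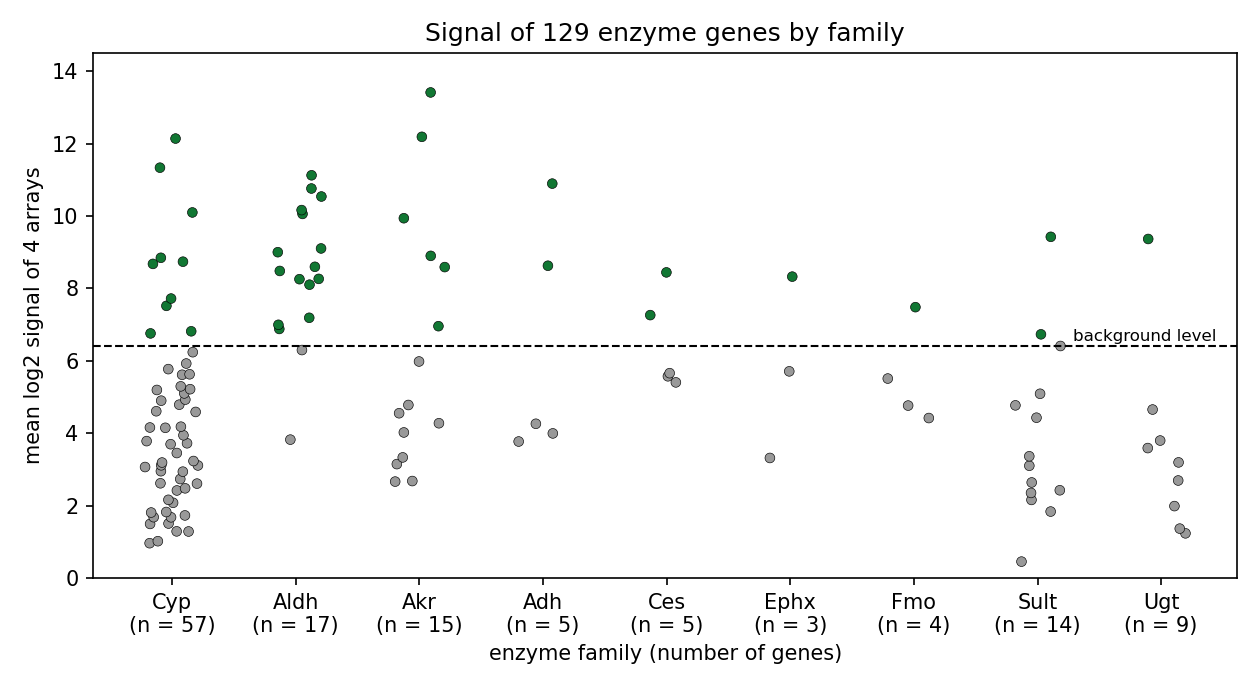
Mean log2 signal of the 4 arrays (vertical axis) for each of the 129 enzyme genes, grouped by family; green points are the 40 genes above the background level of 6.42 (dashed line), grey points the rest. Signals of different probe sets are not a scale of transcript abundance, so a reader should take from it which genes were measurable: 15 of 17 Aldh genes but 10 of 57 Cyp genes.

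The comparison of peri-implant with junctional epithelium asks which of these genes differ between the tissue around an implant and that around a tooth. Below, "rose" and "fell" mean higher or lower in peri-implant epithelium with an adjusted p below 0.05 in limma with an intensity trend and robust prior, adjusted by Benjamini-Hochberg over all 14217 genes. In all, 6 enzyme genes rose, 7 fell and 116 did not pass. Over all genes 7.39% rose and 5.34% fell, so the enzyme genes, with 4.65% and 5.43%, were called about as often as genes in general. Among the 40 above background 5 rose and 3 fell (12.5% and 7.5%), beside 10.1% and 7.6% of all genes above background. Among the other 89, 1 rose and 4 fell, where the shares over all genes below background were 1.91% and 0.785%. Each of these 5 exceeded background in 1 epithelium only, so their count is a description, and Ces1d and Ces1e among them may share signal. The median difference was 0.03 (log2) over the 40 members above background, the same as 0.03 over all genes above background. Of these 40, 4 (10.0%) were 2-fold or more apart, beside 8.14% of all genes above background. Arrays of the epithelia did not overlap for 13 that were higher (32.5%) and 12 that were lower (30.0%) in peri-implant epithelium, beside 34.8% and 29.1%.

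The calls depended on the variance model and on the number of arrays. With limma's default prior 0 of 129 enzyme genes and 0 of all genes passed. In that fit 35 enzyme genes had an unadjusted p below 0.05, beside 2861 of all 14217 genes. With an intensity trend 33 did, beside 4054 of all genes. Leaving out 1 array at a time left 0 to 2 enzyme genes that rose and 0 to 3 that fell. Ces5a passed without either peri-implant array, Ces1d and Ces1e without peri-implant array 1, Cyp4v3 without peri-implant array 2, Aldh4a1 and Cyp2u1 without junctional array 1 and Cyp7b1 without junctional array 2. Each lost its call in the other such fits, and Aldh9a1, Aldh3a2, Aldh16a1, Aldh1a3, Aldh1l1 and Cyp4f17 passed in none of them. No enzyme gene that had passed changed direction, but these settings could not reverse one. The default prior leaves the differences unchanged. The epithelia's arrays did not overlap for any such gene, so leaving out 1 array could not change its sign.

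**Figure D2:**
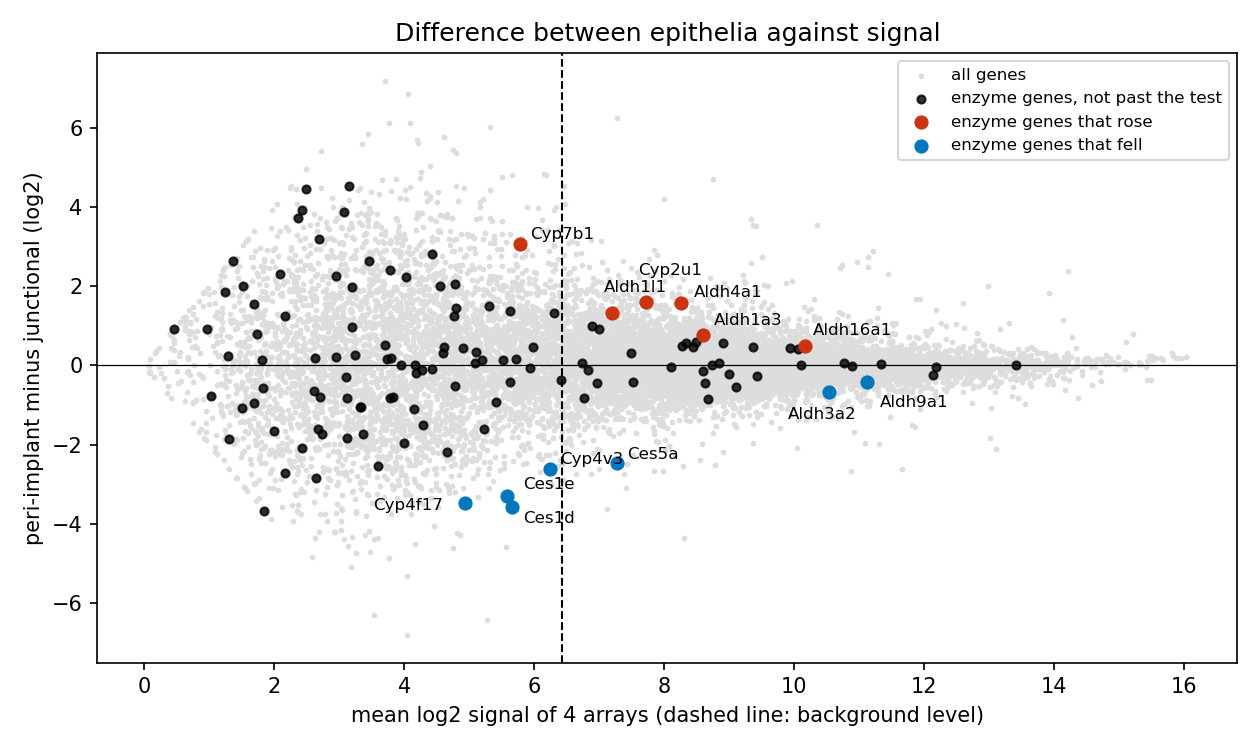
Difference between epithelia (peri-implant minus junctional, log2, vertical axis) against the mean log2 signal of the 4 arrays (horizontal axis), with all 14217 genes in grey and the 129 enzyme genes as larger points; red points are the 6 that rose and blue points the 7 that fell. Differences scatter widely to the left of the background level of 6.42 (dashed line), where the median SD between replicates of the enzyme genes was 0.73 against 0.11 to the right.

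Promoters are shown for 4 of the genes that changed, because Ces1d and Ces1e are neighbouring genes that fell together, while Aldh3a2 and Cyp2u1 are the genes above background on every array with the smallest adjusted p among those that fell and the largest rise. Each is RefSeq sequence of the rat assembly GRCr8, written 5′ to 3′ along the gene's strand. It spans 250 bases before to 50 after the start used for that promoter. For Aldh3a2 and Cyp2u1, both on the minus strand, this start lies inside the gene, which begins at 46448449 and 222541055, respectively. Capitals mark GCGTG, the core bound by the aryl hydrocarbon receptor with Arnt, and AGGTCA, a core element of nuclear receptor binding sites, on either strand.
Ces1d (chr19:30046244-30046543, plus strand): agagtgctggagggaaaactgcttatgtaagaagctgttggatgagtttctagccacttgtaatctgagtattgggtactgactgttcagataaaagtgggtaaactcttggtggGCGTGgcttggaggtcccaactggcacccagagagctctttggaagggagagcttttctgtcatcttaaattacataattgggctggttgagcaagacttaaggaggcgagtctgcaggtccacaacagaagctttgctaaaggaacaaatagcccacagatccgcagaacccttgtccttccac
Ces1e (chr19:30005923-30006222, plus strand): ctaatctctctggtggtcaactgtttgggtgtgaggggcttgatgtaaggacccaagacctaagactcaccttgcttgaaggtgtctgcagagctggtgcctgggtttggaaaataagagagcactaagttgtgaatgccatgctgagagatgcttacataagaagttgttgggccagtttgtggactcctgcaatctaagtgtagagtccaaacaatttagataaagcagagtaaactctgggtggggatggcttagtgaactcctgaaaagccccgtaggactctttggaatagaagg
Aldh3a2 (chr10:46448286-46448585, minus strand): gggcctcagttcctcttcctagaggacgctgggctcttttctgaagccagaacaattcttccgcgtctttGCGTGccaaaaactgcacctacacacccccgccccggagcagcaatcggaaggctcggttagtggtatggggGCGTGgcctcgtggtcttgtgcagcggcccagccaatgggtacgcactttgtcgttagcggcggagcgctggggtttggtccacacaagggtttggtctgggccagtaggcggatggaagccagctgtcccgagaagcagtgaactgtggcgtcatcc
Cyp2u1 (chr2:222540940-222541239, minus strand): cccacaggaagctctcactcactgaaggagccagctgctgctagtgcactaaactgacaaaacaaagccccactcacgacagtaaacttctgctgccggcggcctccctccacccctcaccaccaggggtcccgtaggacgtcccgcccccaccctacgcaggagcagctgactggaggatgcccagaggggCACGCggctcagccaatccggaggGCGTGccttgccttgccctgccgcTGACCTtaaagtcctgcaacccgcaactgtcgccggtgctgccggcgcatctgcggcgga

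GCGTG occurred 2 times in the Aldh3a2 promoter, 2 times in that of Cyp2u1, 1 time in that of Ces1d and not in that of Ces1e, and AGGTCA 1 time, in that of Cyp2u1. Of 106 enzyme genes with a promoter in the table, 26.4% held GCGTG and 24.5% AGGTCA, beside 29.7% and 16.2% of all 33469 promoters. TGACNNNGC, the core of the antioxidant response element, was found in 8.49% against 12.1%, and the Ap1 site TGAGTCA in 2.83% against 4.63%. Neither occurs in the 4 promoters shown. The motifs do not overlap one another in these 4 sequences. Among the 35 promoters of enzyme genes above background by mean, 42.9% held GCGTG, 20.0% AGGTCA, 11.4% TGACNNNGC and 5.71% TGAGTCA. The median share of G and C bases was 55.7% in these, 48.7% in the 106 and 51.7% over all promoters. Whether the motif shares follow base content was not tested. The promoters of Ces1d and Ces1e were identical in 49.3% of the columns of a global alignment, within the 46.5% to 59.3% of all pairs of carboxylesterase promoters.

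Of 5 carboxylesterase genes, 3 fell and 0 rose, where 5.34% of all genes fell and 7.39% rose, and Ces1d and Ces1e among the 3 may share signal. The 3, all on chromosome 19, were below background in peri-implant epithelium. Ces5a, a secreted esterase known from kidney and epididymis, read 8.48 and 8.52 in the junctional arrays and 6.08 and 5.99 in the peri-implant arrays. The arrays of each epithelium were nearly equal and the groups did not overlap. Ces5a was thus 8.50 ± 0.03 in junctional epithelium (mean ± SD over n = 2 arrays, the form used throughout) and at least 4.22-fold lower in peri-implant epithelium (limma adjusted p = 0.00151). Signals below background were raised to 6.42 before a fold is given, and such folds are written as at least.

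Ces1d, an endoplasmic reticulum hydrolase of triacylglycerols, read 7.51 and 7.38 on the junctional arrays and 5.10 and 2.66 on the peri-implant ones. Its junctional mean of 7.44 ± 0.09 was at least 2.03-fold above the peri-implant level (limma adjusted p = 0.0269). Ces1e, a further esterase of the endoplasmic reticulum, read 7.26 and 7.19 against 5.35 and 2.51, at least 1.74-fold lower (limma adjusted p = 0.0486). The pair moved alike on all 4 arrays, and their genes, 3.87 kb apart, belong to a family of close relatives, so signal shared between their probe sets cannot be told apart from transcripts of each.

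The Ces1e call was lost in 5 of 8 other settings that kept all arrays, among them quantile normalization, and that of Ces1d in 1 of 8. Ces1c, the next of the 129 members along the chromosome, 14.3 kb beyond Ces1d, was below background on every array. Ces2c, a liver and intestinal esterase on chromosome 1, read 8.68 and 7.74 against 8.88 and 8.48 and did not pass (log2 difference 0.47 ± 0.31 SE, limma adjusted p = 0.37). In GRCr8, Ces5a lies on chromosome 19 from 11198829 to 11504887, Ces1e from 30006173 to 30042628 and Ces1d from 30046494 to 30085039, all protein-coding.

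**Figure D3:**
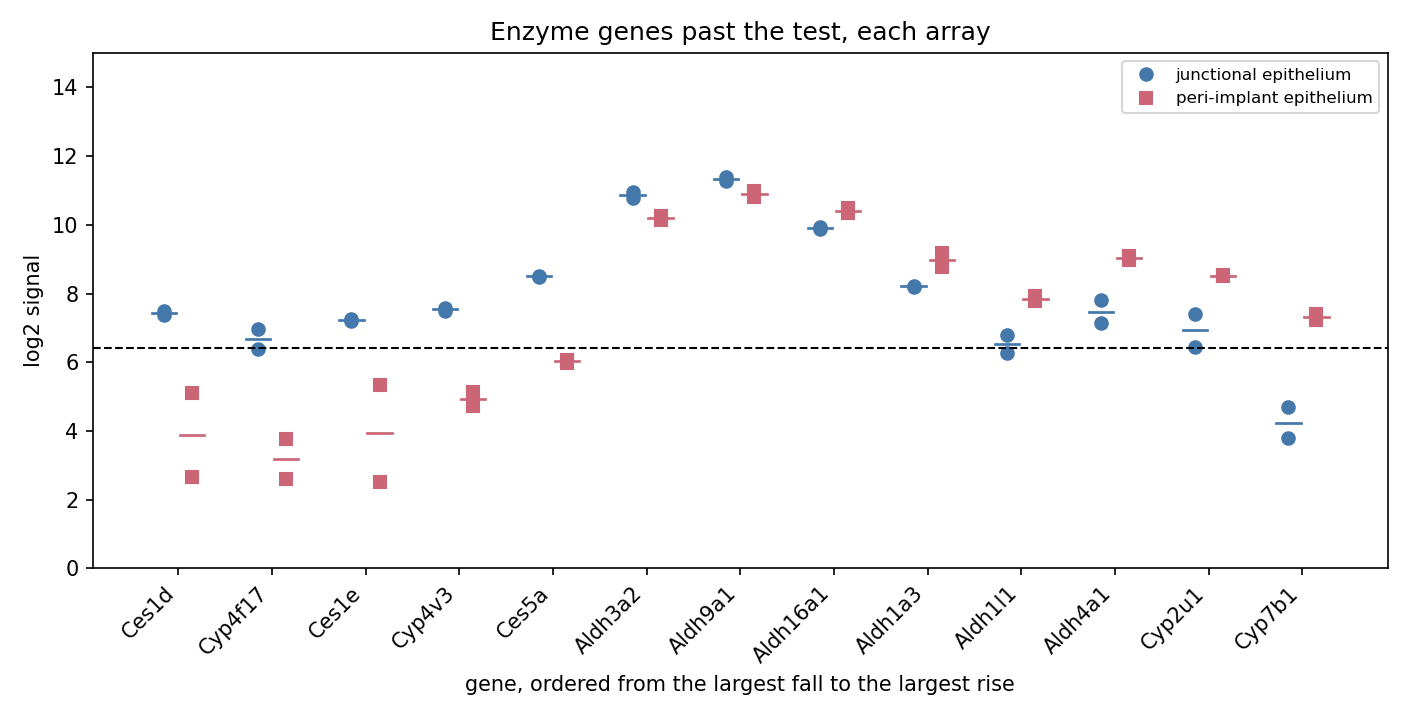
Log2 signal (vertical axis) of the 13 enzyme genes past the test on each array, junctional epithelium as blue circles and peri-implant epithelium as red squares, with a short line at each mean (n = 2). The dashed line is the background level of 6.42. Below it lie the peri-implant points of Ces1d, Ces1e, Ces5a, Cyp4v3 and Cyp4f17 and the junctional points of Cyp7b1. Also below it is 1 junctional point each of Cyp4f17 and Aldh1l1.

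Of 17 aldehyde dehydrogenase genes, 4 rose (Aldh4a1, Aldh1l1, Aldh1a3 and Aldh16a1), 2 fell (Aldh3a2 and Aldh9a1) and 11 did not pass. All 6 were among the 15 above background, and of all genes above background 10.1% rose and 7.6% fell. Their arrays did not overlap for 13 of the 15 above background, 8 higher and 5 lower in peri-implant epithelium, beside 34.8% and 29.1% of all genes above background.

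Aldh4a1, the mitochondrial enzyme that completes the breakdown of proline, read 7.81 and 7.14 on the junctional arrays and 8.97 and 9.10 on the peri-implant ones. It rose from 7.47 ± 0.47 to 9.04 ± 0.09, or 2.96-fold, with limma adjusted p = 0.00673. Aldh18a1, which acts at the start of proline synthesis, read 7.66 and 8.38 against 8.35 and 8.68, with overlapping arrays and no call (limma adjusted p = 0.284).

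Aldh1l1, a cytosolic folate enzyme that releases one-carbon units as carbon dioxide, read 6.81 and 6.26 on the junctional arrays and 7.93 and 7.77 on the peri-implant ones. As 1 junctional array was below background, the rise was at least 2.36-fold (limma adjusted p = 0.0358). It did not pass after quantile normalization or with a trend but no robust prior. Its mitochondrial relative Aldh1l2 read 6.63 and 6.14 against 7.22 and 7.54, at least 1.81-fold higher in peri-implant epithelium but not past the test (limma adjusted p = 0.122).

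Aldh16a1, an atypical member of the family, read 9.95 and 9.88 against 10.34 and 10.48, a 1.41-fold rise (limma adjusted p = 0.0302). Aldh3b1, which oxidises lipid-derived aldehydes, read 6.41 and 6.66 against 7.42 and 7.50 and did not pass (limma adjusted p = 0.112). For Aldh3b1 and Aldh1l2 as for Aldh1l1, both peri-implant arrays were above background and at least 1 junctional array was below it.

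Aldh3a2, the fatty aldehyde dehydrogenase whose loss causes the scaly skin of Sjogren-Larsson syndrome, read 10.96 and 10.79 on the junctional arrays and 10.24 and 10.15 on the peri-implant ones. It fell 1.60-fold, by 0.68 ± 0.11 (SE) on the log2 scale, with limma adjusted p = 0.0067, and was well above background on all arrays. Its neighbour on chromosome 10, Aldh3a1, a detoxifying enzyme abundant in cornea, lies 25.6 kb away and did not pass. It read 9.22 and 9.01 against 8.95 and 8.83 (limma adjusted p = 0.438). Whether the 2 neighbours differed in their change was not tested.

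Aldh9a1, which oxidises aminoaldehydes on the way to carnitine, read 11.29 and 11.39 against 10.82 and 11.00, a 1.35-fold fall (limma adjusted p = 0.0292). Aldh6a1, of valine breakdown, read 9.46 and 9.30 against 9.01 and 8.65, and Aldh7a1, of lysine breakdown, 9.95 and 9.74 against 10.36 and 10.18. Neither passed (limma adjusted p = 0.083 and 0.0749), though both did when only genes above background were fitted. A second probe set of Aldh6a1, above background on all arrays, read 9.13 and 9.14 against 8.38 and 9.11.

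Aldh2, the mitochondrial acetaldehyde dehydrogenase, read 10.67 and 10.79 against 10.75 and 10.83 (log2 difference 0.06 ± 0.10 SE, limma adjusted p = 0.772). Aldh5a1, of the breakdown of the transmitter GABA, read 8.12 and 8.14 against 8.09 and 8.06 (limma adjusted p = 0.908). For both genes the difference was no larger than its SE. In GRCr8, Aldh4a1 lies on chromosome 5 from 157163189 to 157188673, Aldh3a2 on chromosome 10 from 46427789 to 46448449, Aldh9a1 on chromosome 13 from 82038679 to 82055478, Aldh16a1 on chromosome 1 from 104763200 to 104776270 and Aldh1l1 on chromosome 4 from 124617182 to 124663674.

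**Figure D4:**
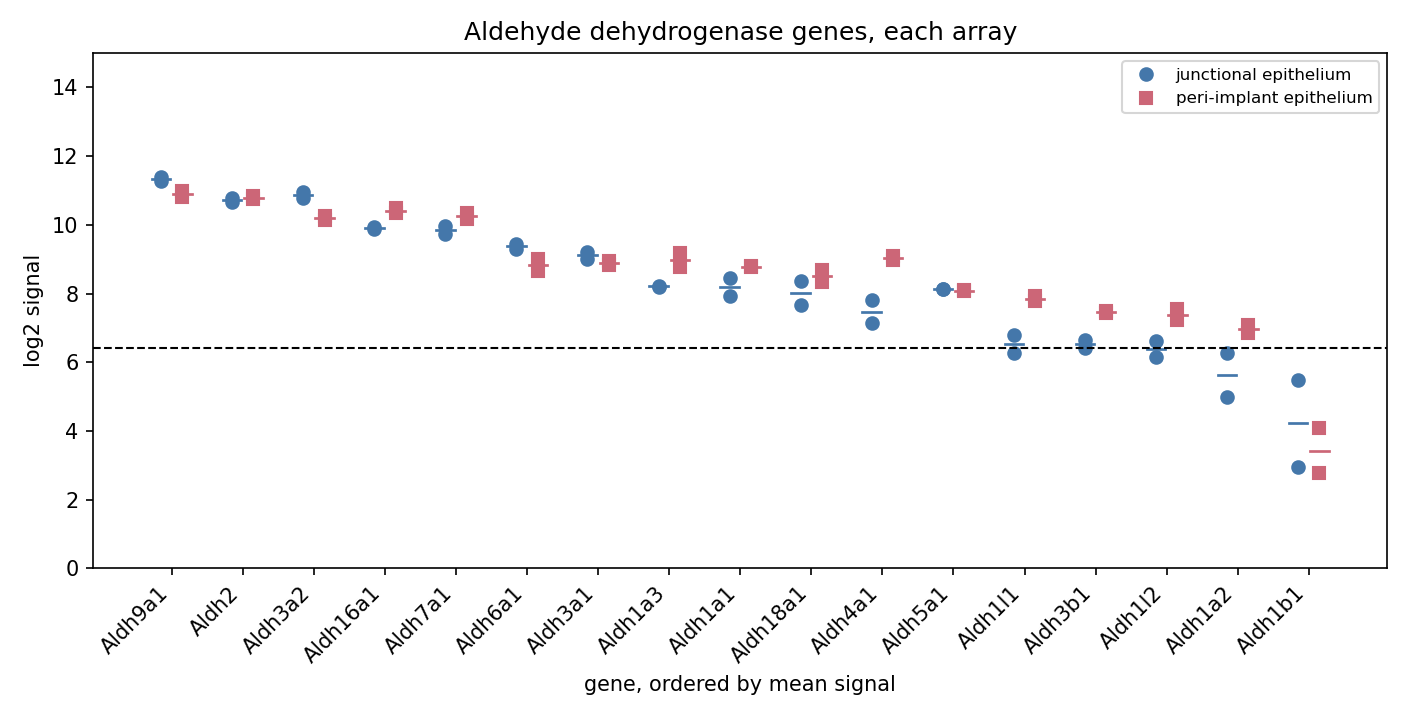
Log2 signal (vertical axis) of the 17 aldehyde dehydrogenase genes on each array, in order of mean signal, with junctional epithelium as blue circles, peri-implant epithelium as red squares and a short line at each mean (n = 2). Among genes past the test, squares lie clearly above circles for Aldh4a1, Aldh1l1 and Aldh1a3 and below them for Aldh3a2 and Aldh9a1. Squares also lie apart from circles for genes that did not pass, such as Aldh1a2, Aldh1l2 and Aldh3b1 (above) and Aldh6a1 (below). The dashed line is the background level of 6.42.

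Of the enzymes that make or clear retinoic acid, 1 of 9 measured genes rose and 0 fell, near the 7.39% and 5.34% of all genes. Aldh1a3, which oxidises retinal to retinoic acid, read 8.23 and 8.20 on the junctional arrays and 9.18 and 8.79 on the peri-implant ones. It rose 1.70-fold (log2 difference 0.77 ± 0.21 SE, limma adjusted p = 0.0436), but did not pass after quantile normalization, after centring on genes above background, or when all probe sets were fitted together. Aldh1a1, with the same reaction, read 8.44 and 7.92 against 8.76 and 8.81 (limma adjusted p = 0.123). The third of these retinal dehydrogenases, Aldh1a2, was below background in junctional epithelium, with 6.28 and 4.98, and read 7.09 and 6.84 in peri-implant epithelium (limma adjusted p = 0.152). Of the 3, Aldh1a3 alone passed, and whether their differences are unequal was not tested.

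Cyp26b1, which breaks down retinoic acid, read 8.74 and 8.73 against 9.0 and 8.50, with overlapping arrays. Its second probe set read 7.43 and 7.69 against 6.63 and 6.26, lower in peri-implant epithelium without overlap and with 1 array below background, so the 2 probe sets of this gene disagree. The related Cyp26a1 was below background throughout. Adh7, the alcohol dehydrogenase of upper digestive epithelia that oxidises retinol, read 8.75 and 8.95 against 8.58 and 8.23 (limma adjusted p = 0.203). Akr1b8, an aldose reductase relative, read 12.20 and 12.22 against 12.22 and 12.11 (limma adjusted p = 0.773). Aldh1a3 lies on chromosome 1 from 129392516 to 129436552.

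Other genes of retinoid handling came from a list of 19, of which 18 were measured, 3 rose and 0 fell. Beside these, 7.39% of all genes rose and 5.34% fell, or 10.1% and 7.6% of genes above background. The 3 that rose were above background on every array. Stra6, the cell surface receptor that takes up retinol, rose from 8.88 ± 0.16 to 10.30 ± 0.12 (limma adjusted p = 0.000734). Rbp2, a cellular retinol-binding protein, rose from 10.02 ± 0.00 to 11.37 ± 0.20 (limma adjusted p = 0.000275). Dgat1, an acyltransferase that makes triacylglycerols and retinyl esters, rose from 8.46 ± 0.06 to 9.49 ± 0.10 (limma adjusted p = 0.00597). The remaining 15 did not pass, among them the retinoic acid receptors Rara (7.99 and 8.23 against 8.83 and 8.82) and Rarg (9.22 and 8.92 against 9.30 and 9.11) and the binding protein Crabp2.

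Of 17 P450 genes of fatty acids and arachidonic acid, 1 rose, 2 fell and 10 were below background on all arrays. The shares that rose and fell were 5.88% and 11.8%, beside 7.39% and 5.34% of all genes. Both genes that fell were below background by mean, where 0.785% of all genes fell. Cyp2u1, which hydroxylates long-chain fatty acids including arachidonic acid, read 7.41 and 6.44 on the junctional arrays and 8.53 and 8.51 on the peri-implant ones. It rose 3.02-fold, from 6.93 ± 0.68 to 8.52 ± 0.01 (limma adjusted p = 0.0186), and the wider spread lay in the junctional arrays, 1 of them just above background.

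Cyp4v3, a fatty acid hydroxylase whose human counterpart is mutated in a retinal dystrophy, read 7.50 and 7.58 against 4.74 and 5.14. It was at least 2.18-fold lower in peri-implant epithelium (limma adjusted p = 0.00983), while its second probe set was below background on all arrays. The call was lost when all probe sets of a gene were averaged. Cyp4f17, of the same fatty acid hydroxylase family, read 6.39 and 6.96 against 2.61 and 3.77. Only 1 junctional array exceeded background, so the fold is bounded at 1.19 (limma adjusted p = 0.034), and the call was lost when low signals were raised to background.

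The Cyp2j epoxygenases form a cluster on chromosome 5 and none of the 3 measured passed. Cyp2j10 read 10.13 and 10.05 against 10.23 and 9.98, Cyp2j4 read 8.95 and 8.67 against 8.90 and 8.86, and Cyp2j3 read 7.44 and 8.03 against 7.34 and 7.27. A second probe set of Cyp2j3 was below background on both junctional arrays and just above it on both peri-implant arrays, at 6.49 and 6.51. Ephx2, the soluble epoxide hydrolase that opens the epoxides these enzymes form, read 8.09 and 7.99 against 8.65 and 8.58 without overlap. Its log2 difference of 0.58 ± 0.21 (SE) did not pass (limma adjusted p = 0.103). Cyp2u1 lies on chromosome 2 from 222523516 to 222541055, Cyp4v3 on chromosome 16 from 53650978 to 53675916 and Cyp4f17 on chromosome 7 from 12169366 to 12186731.

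Among P450 enzymes of steroids, sterols and vitamin D, 1 of 13 rose and 0 fell, beside 7.39% and 5.34% of all genes. The riser was below background by mean, where 1.91% of all genes rose. Cyp7b1, which hydroxylates oxysterols on the acidic path to bile acids, was below background in junctional epithelium, with 3.78 and 4.69, and read 7.22 and 7.40 in peri-implant epithelium. It was 7.31 ± 0.13 there, at least 1.85-fold higher (limma adjusted p = 0.0146). Its gene lies on chromosome 2 from 102419011 to 102586047. Cyp27a1, the mitochondrial sterol hydroxylase, read 9.48 and 8.73 against 8.57 and 7.94. Its log2 difference of -0.85 ± 0.29 (SE) did not pass (limma adjusted p = 0.0916), and did when only genes above background were fitted. Cyp20a1, an orphan member, read 11.26 and 11.37 against 11.37 and 11.34 (limma adjusted p = 0.85).

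None of the 17 P450 genes known for drugs and pollutants passed. An unadjusted p below 0.05 in the same limma fit held for 33 of all 129 enzyme genes, beside 4054 of 14217 genes. It held for 2 of these 17. Cyp3a9, which oxidises steroids and drugs, was the member of this group above background on all 4 arrays, at 12.31 and 12.22 on the junctional arrays and 12.01 and 12.02 on the peri-implant ones. Its difference of -0.25 ± 0.08 (SE) was small and did not pass (limma adjusted p = 0.0783), but it passed after centring on genes above background. Cyp2s1, an epithelial P450, read 6.83 and 6.93 against 6.07 and 7.44. Cyp2t1, a P450 gene outside this group, read 7.19 and 7.15 against 6.43 and 6.27 (limma adjusted p = 0.186). It passed when low signals were raised to background.

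No aldo-keto reductase, alcohol dehydrogenase, sulfotransferase, glucuronosyltransferase, flavin monooxygenase or epoxide hydrolase passed limma's test with an intensity trend. Akr1a1, the general aldehyde reductase, read 13.37 and 13.43 against 13.43 and 13.41, and Adh5, which removes formaldehyde, 10.90 and 10.90 against 10.92 and 10.86. For these bright genes the SE of the difference was 0.07 and 0.10. Akr1b1, the aldose reductase that makes sorbitol, read 8.83 and 8.42 against 9.38 and 8.98, with a difference of 0.56 ± 0.22 (SE, limma adjusted p = 0.129). Akr1e2, a reductase of a sugar derivative, read 9.88 and 9.56 against 10.21 and 10.11, and Akr7a2, which reduces aldehydes including those of aflatoxin, 8.68 and 8.64 against 8.59 and 8.44. Akr1e2 passed in the fit of genes above background (limma adjusted p = 0.0833 in the fit of all genes). Akr1c3, a hydroxysteroid dehydrogenase relative, read 7.07 and 7.28 against 6.32 and 7.16.

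Sult2b1, the cholesterol sulfotransferase of keratinizing epithelium, read 9.43 and 9.69 against 9.51 and 9.08, with overlapping arrays (limma adjusted p = 0.399). Its second probe set, also above background on all arrays, read 8.13 and 7.99 against 7.37 and 7.08. For that probe set the arrays did not overlap, with a log2 difference of -0.84, beside -0.26 for the one used. Sult1b1, of phenols and thyroid hormones, read 6.51 and 6.90 against 6.54 and 6.99. Sult1d1 read 6.76 and 6.42 against 6.58 and 5.88. Ugt2b34l1 read 9.07 and 9.19 against 9.82 and 9.38 (log2 difference 0.47 ± 0.18 SE, limma adjusted p = 0.128). Fmo5 read 6.75 and 7.91 against 7.81 and 7.47, a spread between junctional arrays larger than the difference between groups.

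Of 9 listed partners of these enzymes 8 were measured, all above background on every array, and 1 rose while 2 fell, where 10.1% and 7.6% of all genes above background did. The electron transfer genes Por, Cyb5a and Cyb5b did not pass, nor did Pgrmc1 and the heme synthesis gene Alas1. Fdx1, the ferredoxin that feeds electrons to mitochondrial P450 enzymes, fell from 12.25 ± 0.01 to 11.61 ± 0.06 (limma adjusted p = 0.00193). Cyb5r3, the reductase of cytochrome b5, fell from 10.22 ± 0.03 to 9.36 ± 0.27 (limma adjusted p = 0.0102). Hmox1, which breaks down heme, rose from 7.90 ± 0.46 to 9.43 ± 0.26 (limma adjusted p = 0.00619). Por, the reductase of microsomal P450 enzymes, read 10.47 and 10.69 against 10.72 and 10.55.

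Of 15 receptors and regulators of xenobiotic response, 1 rose and 0 fell, near the 7.39% and 5.34% of all genes. Below background on all arrays were 7, including Nr1i2 and Nr1i3, the receptors that induce drug-metabolizing P450 genes. The riser was Rxrb, a retinoid X receptor, from 8.23 ± 0.13 to 9.03 ± 0.15 (limma adjusted p = 0.0309). The aryl hydrocarbon receptor gene Ahr read 9.03 and 8.87 against 8.79 and 8.54, and its repressor Ahrr was below background. Nfe2l2, the regulator of antioxidant genes, read 11.00 and 11.10 against 11.04 and 11.15. Of 12 measured genes of other detoxification, Tpmt, a methyltransferase, rose from 9.07 ± 0.13 to 9.65 ± 0.00 (limma adjusted p = 0.0391) and Abcc1, an efflux pump, fell from 12.00 ± 0.03 to 11.70 ± 0.02 (limma adjusted p = 0.044).

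Markers of other cells moved between the same samples. Beside the counts below, 7.39% of all genes rose and 5.34% fell, or 10.1% and 7.6% of genes above background. The summed linear signal of 6 measured keratinizing layer markers was 14.96 and 14.85 (log2) on the junctional arrays and 12.76 and 12.84 on the peri-implant ones, and 5 of the 6 fell. That of 10 macrophage and dendritic cell markers was 12.61 and 12.66 against 13.57 and 13.59, with 4 rising and 1 falling. That of 7 neutrophil markers was 15.30 and 15.31 against 16.69 and 16.49, with 5 rising. S100a8 and S100a9 made up most of this sum, and whether neutrophils were their source was not tested. The 2 that did not pass were Mmp9 (10.85 and 10.95 against 10.93 and 11.05) and Mmp8, below background on all arrays. Of 8 fibroblast markers 3 rose and 1 fell, and their sum was 15.47 on both junctional and 15.69 on both peri-implant arrays. All 6 adipocyte markers and all 6 measured salivary gland markers were below background on every array. Of 5 measured hepatocyte markers, Alb was at or below 4.94, Serpina1 exceeded background on both peri-implant arrays and Apoa1 on 1, and the sum of the 5 was 6.36 and 6.51 against 8.55 and 8.17. Ttr passed as higher in peri-implant epithelium (limma adjusted p = 0.0439) while below background on all arrays. Of 4 measured bone and cementum markers 1 fell and 2 rose, with sums of 10.64 and 10.80 against 10.55 and 10.67. Bglap, which encodes osteocalcin, fell 5.80-fold (limma adjusted p = 0.000282), Spp1 rose 1.64-fold (limma adjusted p = 0.0291) and Alpl rose at least 2.44-fold (limma adjusted p = 0.0239). None of 4 measured endothelium markers passed, and their sum was 10.46 and 10.73 against 10.42 and 10.25. The part of cells marked by these lists in the enzyme differences was not tested.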

How the data were processed

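Affymetrix rat arrays were used, 2 of junctional and 2 of peri-implant epithelium, grouped and numbered by their titles. Per the labels' protocols, RNA of laser-microdissected frozen sections was amplified and biotin-labelled. The authors deposited log2 signals, covering 31099 probe sets, and their software was not given in the sources used here. On each array the values, taken to a linear scale, have a trimmed mean (2% from either end) of 500.19 and a floor of 1. No array was normalized again.

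The 57 control probe sets were not tested. Among the others, 20826 carried 1 symbol, 436 several and 9780 none. Where a gene had several, the probe set of highest mean stood for it. Positions came from the RefSeq gene table of GRCr8, which held 128 of the 129 members.

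The epithelia were compared with limma 3.58.1 under R 4.3.3 (lmFit and eBayes, the prior robust and following an intensity trend, two-sided, 2 residual degrees of freedom), fitted and Benjamini-Hochberg adjusted over all 14217 genes. The default prior, other normalizations and filters, the replicate block and leaving out each array were alternatives. The fit was also run on simulated data. Their spread was set by signal alone, as the intensity trend assumes, so that run could not judge the choice of prior. Promoters were aligned with Biopython 1.88. The members, the gene lists and the choice of variance prior were made with earlier results of these data known. Named genes were those past the test; the 3 with the highest mean in each family; the 8 largest differences in each direction, above background without overlap but not past the test; and members of the role groups above background. Genes below background in both epithelia were counted, with some of them named after their values were seen.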

Additional observations from a re-analysis of the deposited data

How the results depend on the processing

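With limma's default prior, 0 enzyme genes rose and 0 fell, and 0 of all genes in either direction (smallest adjusted p = 0.0898, 2861 genes with unadjusted p below 0.05). Fitting only genes above background gave 7 members above background that rose in place of 5 and 6 that fell in place of 3, and quantile normalization 3 that rose in place of 5. The replicate block gave 7 that rose and 5 that fell. Quantile normalization moved the median difference of members below background from 0.14 to -0.061. Leaving out 1 array gave 0 to 2 enzyme genes that rose, also among those above background, and 0 to 3 that fell, or 0 to 1 among those above background. Over all genes it gave 170 to 231 that rose and 50 to 210 that fell, in place of 1051 and 759, and a median difference of members below background from -0.11 to 0.26. An arm of 1 array was assumed to vary as the other. The arrays share numbers but nothing in the labels pairs them, and deviations of same-numbered arrays correlated at 0.02 over all genes. With the replicate block 1410 genes rose and 1060 fell. With the median control signal (3.43) as background, 86 members were above it in place of 40. No enzyme gene that passed reversed, which was fixed in advance for the default prior and for leaving out 1 array. Signals near background limit what can be said of the 79 members below it on every array.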
